A study of Arabidopsis thaliana with 18 samples.

Results

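PRX52 (At5g05340, chromosome 5) and At4g36430 (chromosome 4) are 2 of the 55 class III peroxidase genes of Arabidopsis that could be named on the ATH1 array, out of 73 loci in the family list and 13286 named genes in all. Both were selected on the difference of their array values between vte2 and Col after 48 h or 120 h of low temperature (LT), so the genotype differences at those times are given below as a description, with no test. Each gene was measured by 1 probe set.

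Class III peroxidases are secreted haem enzymes of the plant cell wall and vacuole. With hydrogen peroxide they oxidise phenolic compounds, among them the monolignols that polymerise into lignin, and they cross-link wall phenolics and proteins. Under other conditions the same enzymes can release reactive oxygen species, and many members of the family respond to pathogens and wounding. PRX52 is known for its part in the lignification of Arabidopsis stems, whereas At4g36430 is known here only as a putative peroxidase.

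The 18 arrays held RNA of vte2, a tocopherol (vitamin E) deficient mutant, and of Col, its wild type. Plants were 4 weeks old and had grown at 22°C in the light and 18°C in the dark. They were sampled at 0 h, before LT, or after 48 h or 120 h at 7°C in a 12 h photoperiod. Each group had 3 arrays, vte2 and Col at each time, and each array represented rosette leaves 9 to 11 of 3 plants. Whole leaves were used, so fewer cells of a type and less RNA per cell cannot be told apart.

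Values are deposited log2 expression values of 22810 probe sets, and a difference of 1 is a 2-fold change. Array medians lay between 4.98 and 5.18. Replicate 3 of both genotypes at 0 h stood apart from the other arrays of its group. Of the 77 probe sets called between the genotypes at 48 h, 71 had the other sign at 120 h, and for At4g36430 the deposited 120 h values also opposed the 120 h columns of the study's heat map. The direction at 120 h is therefore not settled, and the arrays of that time are named by their labels. The mutated gene was not analysed here, so it could not check the labels. The leaf marker RCA, Rubisco activase, lay between 12.53 and 13.63 in all arrays, and the root marker EXPA7 between 3.44 and 4.23. None of the 6 xylem and 4 phloem markers was named, so those cell types were not assessed.

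PRX52 measured 4.34 or less in every group except one, the arrays labelled Col at 120 h. Before LT, PRX52 measured 3.77, 4.24 and 3.26 in vte2 arrays, against 4.34, 4.14 and 3.54 in Col arrays. At 48 h it measured 3.53, 3.36 and 3.62 in vte2, against 3.59, 3.49 and 3.20 in Col. At 120 h it measured 3.70, 4.11 and 3.83 in arrays labelled vte2, against 6.31, 6.32 and 6.28 in arrays labelled Col. The genotypes overlapped at 0 h and 48 h but were separated at 120 h by a gap of 2.17, and the 3 arrays labelled Col were nearly identical.

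The group means of PRX52, low to high, were 3.42 ± 0.20 in Col at 48 h, 3.51 ± 0.13 in vte2 at 48 h, 3.76 ± 0.49 in vte2 at 0 h, 3.88 ± 0.21 in arrays labelled vte2 at 120 h, 4.01 ± 0.42 in Col at 0 h and 6.30 ± 0.02 in arrays labelled Col at 120 h (SD, n = 3 each). Neighbouring groups overlapped throughout the first 5, and the last stood apart. The 15 arrays outside it covered 3.20 to 4.34. PRX52 thus had 1 high group rather than a gradient over the 6 groups.

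At4g36430 showed another pattern, with 2 groups that were high only relative to its other groups. Over all arrays it averaged 3.72, and both high groups averaged 4.19. The 40% dimmest probe sets average under 4.35, so the pattern lies at low signal. Before LT, At4g36430 measured 3.44, 3.78 and 3.47 in vte2 arrays, against 3.75, 3.49 and 3.44 in Col arrays. At 48 h the values were 3.97, 4.47 and 4.11 in vte2, against 3.38, 3.37 and 3.43 in Col. At 120 h they were 3.40, 3.39 and 3.47 in arrays labelled vte2, against 3.86, 4.27 and 4.42 in arrays labelled Col. The genotypes overlapped at 0 h, and they were separated by gaps of 0.54 at 48 h and 0.39 at 120 h, with the high group bearing the vte2 label at 48 h and the Col label at 120 h.

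In order of their means, At4g36430 averaged 3.39 ± 0.03 in Col at 48 h, 3.42 ± 0.04 in arrays labelled vte2 at 120 h, 3.56 ± 0.19 in vte2 at 0 h, 3.56 ± 0.16 in Col at 0 h, 4.19 ± 0.26 in vte2 at 48 h and 4.19 ± 0.29 in arrays labelled Col at 120 h (SD, n = 3 each). Neighbours overlapped among the first 4 groups and between the last 2. The 6 arrays of the 2 high groups covered 3.86 to 4.47 and the other 12 arrays 3.37 to 3.78.

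**Figure D1:**
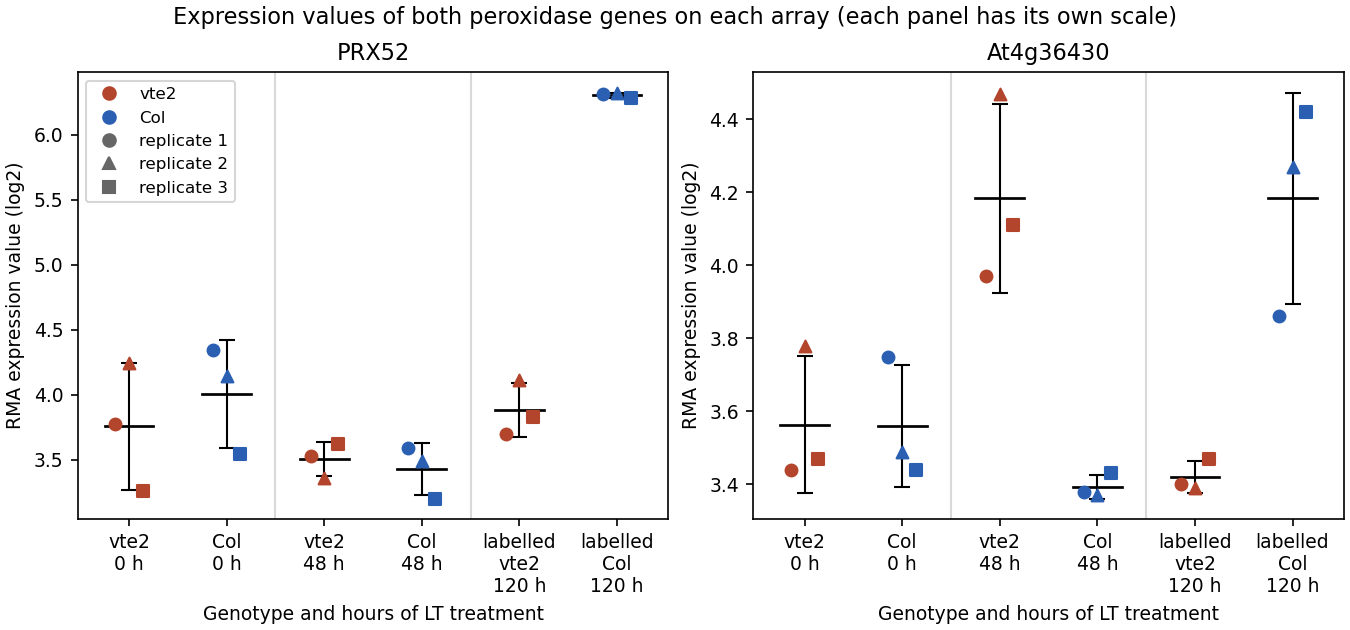
Deposited log2 expression values of PRX52 and At4g36430 (vertical axes) at 0, 48 and 120 h of LT (horizontal axes), vte2 left of Col, with 120 h arrays placed by their labels. Points are single arrays and bars are group means ± SD (n = 3 arrays). PRX52 is high in the 3 arrays labelled Col at 120 h alone, at 6.28 or above, and At4g36430 is at 3.86 or above in vte2 at 48 h and in arrays labelled Col at 120 h.

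Before LT, neither gene was called different between the genotypes. PRX52 differed by -0.25 (vte2 minus Col, SE 0.22, 95% interval -0.73 to 0.23, adjusted p = 0.823 in limma). At4g36430 differed by 0.00 (SE 0.15, interval -0.33 to 0.33, adjusted p = 0.999). Of all probe sets, 0.00877% were called at this time in either direction (2 of 22810, with 1947 at an unadjusted p under 0.05). That share depended on the replicate 3 arrays. Without both, 454 probe sets were called higher and 588 lower, and without replicate 3 of vte2 alone 255 and 336. Neither gene was called then either, with -0.24 for PRX52 (adjusted p = 0.507) and -0.02 for At4g36430 (adjusted p = 0.98) without both arrays.

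At 0 h, PRX52 was lowest in replicate 3 of each genotype, with 3.26 in vte2 and 3.54 in Col. In vte2, replicate 2 was high at 4.24, so replicate 3 was not the only source of the spread there. Replicate 3 lay below the mean of replicates 1 and 2 by a difference of -0.74 in vte2 (mean 4.00) and of -0.70 in Col (mean 4.24). For At4g36430 the corresponding differences were -0.14 in vte2 and -0.18 in Col. Both genes thus were lower in replicate 3 in both genotypes, PRX52 by more than its pooled replicate SD of 0.29 and At4g36430 by less than its pooled SD of 0.19. Without both replicate 3 arrays, PRX52 at 48 h was below 0 h by a difference of -0.66 over both genotypes, in place of -0.42.

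The genotype differences that chose the genes were large for PRX52 at 120 h and moderate for At4g36430 at both times. At 48 h, PRX52 differed between vte2 and Col by 0.08 (SE 0.22, interval -0.40 to 0.56) and At4g36430 by 0.79 (SE 0.15, interval 0.47 to 1.12), a 1.73-fold higher level in vte2. Over the array, 0.338% of probe sets were called at 48 h in either direction, and 16.1% had arrays that did not overlap between the genotypes. At4g36430 belonged to both classes and PRX52 to neither. For At4g36430 this restates the values that chose it, and its 1.73-fold value rests on low signal, as given above.

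At 120 h, PRX52 differed by -2.42 between arrays labelled vte2 and arrays labelled Col (SE 0.22, interval -2.90 to -1.94), a 5.36-fold lower level in arrays labelled vte2. At4g36430 differed by -0.77 (SE 0.15, interval -1.09 to -0.44), or 1.70-fold lower in arrays labelled vte2, again at low signal. With the labels of that time exchanged, both would be higher in vte2. At 120 h, 3.44% of probe sets were called higher and 3.09% lower in arrays labelled vte2, and 36.6% did not overlap in either direction. A difference at least as large as that of PRX52, in either direction, was found for 0.162% of probe sets (37 of 22810).

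The difference of At4g36430 turned its sign between the times with nearly equal size, whereas for PRX52 the arrays of the genotypes were apart at 120 h and overlapped at 48 h. The genotype difference at 120 h minus that at 48 h was -1.56 for At4g36430 (SE 0.22) and -2.50 for PRX52 (SE 0.32). Probe sets that, like At4g36430, were higher in every vte2 array at 48 h and lower in every array labelled vte2 at 120 h made up 3.15% of the array (719 of 22810).

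Averages over both genotypes do not depend on the genotype labels, but at 120 h they rest on the arrays that chose PRX52, so they are given with no test. PRX52 at 120 h averaged 1.21 above 0 h (SE 0.16, interval 0.87 to 1.55), or 2.31-fold. It averaged 1.62 above 48 h (SE 0.16, interval 1.29 to 1.96), or 3.08-fold. Over the array, 20.1% of probe sets were called higher at 120 h than at 0 h and 17.0% higher than at 48 h, from which nothing is read for PRX52. The average describes neither genotype at 120 h, because arrays labelled vte2 lay 0.12 above vte2 at 0 h, whereas arrays labelled Col lay 2.29 above Col at 0 h, a 4.90-fold difference (SE 0.22 each). The arrays at 120 h and 0 h overlapped, while those at 120 h and 48 h did not.

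At 48 h PRX52 was lower than at 0 h by a difference of -0.42 (SE 0.16, interval -0.76 to -0.08, adjusted p = 0.0433 in limma), in a comparison in which 24.6% of probe sets were called lower and 20.8% higher. The arrays of the times overlapped, and those of the genotypes did at both times. The SE pools the spread of all 18 arrays, among them the 120 h arrays that chose PRX52. With only the arrays compared, the difference missed the threshold (SE 0.18, adjusted p = 0.095 in limma). The rule also covered 48 h, so the test is not fully apart from the choice of the gene. The difference was -0.25 within vte2 and -0.58 within Col (SE 0.22 each). The call passed the threshold without replicate 3 of vte2 at 0 h, replicate 3 of Col at 0 h, replicate 1 of Col at 48 h or replicate 1 or 2 of the arrays labelled vte2 at 120 h, and missed it without any of the other 13 arrays, with adjusted p from 0.00551 to 0.111 over all 18 omissions. Without both replicate 3 arrays at 0 h it was -0.66 (SE 0.11, adjusted p = 0.00017).

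For At4g36430 the averages over both genotypes rest on the arrays that chose it at both LT times and are likewise given with no test. The mean at 48 h exceeded that at 0 h by 0.23 (SE 0.11, interval 0.00 to 0.46), and the mean at 120 h exceeded it by 0.24 (SE 0.11, interval 0.01 to 0.47). The difference between 120 h and 48 h was 0.01 (SE 0.11, interval -0.22 to 0.25). These averages join a high and a low group at each LT time. From 0 h to 48 h the difference was 0.62 in vte2 and -0.17 in Col, and from 0 h to 120 h it was -0.14 in arrays labelled vte2 and 0.62 in arrays labelled Col (SE 0.15 each).

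**Figure D2:**
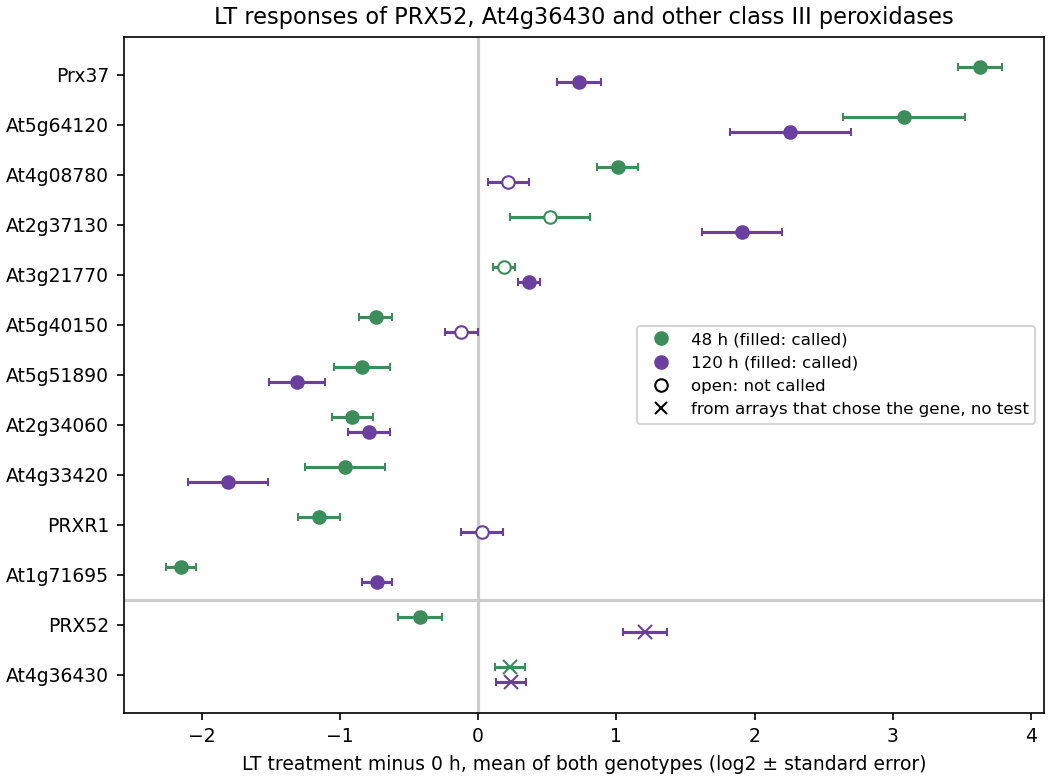
Difference from 0 h over both genotypes (log2, horizontal axis) at 48 h and 120 h for class III peroxidases (vertical axis), with bars for the SE of the limma fit and filled points for adjusted p under 0.05. Crosses mark averages that rest on the arrays that chose the gene and were not tested. PRX52 lies at -0.42 at 48 h and 1.21 at 120 h, and At4g36430 at 0.23 and 0.24.

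Over the 18 arrays the values of the pair had a Pearson correlation of 0.52, and the deviations from the group means one of 0.26. Both were high in the arrays labelled Col at 120 h, and At4g36430 alone in vte2 at 48 h. Arrays share their normalization, so these values are a description. At4g36430 ranked 888 among the 13285 other named genes by likeness to PRX52, and PRX52 ranked 323 by likeness to At4g36430.

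The named genes most like PRX52 were also high in arrays labelled Col at 120 h, which their selection by correlation with PRX52 largely fixes. BGLU31, a beta-glucosidase family gene, had a correlation of 0.93 over the 18 arrays and of 0.97 over the 6 group means. At3g02770 followed with 0.93 and 1.00, At5g02580 with 0.92 and 0.97, At4g16260 with 0.91 and 0.95 and At3g60470 with 0.91 and 0.94. At4g16260 belongs to the beta-1,3-glucanase family, whose enzymes hydrolyse callose and related glucans. At 120 h, At4g16260 averaged 3.88 in arrays labelled vte2 and 6.48 in arrays labelled Col, BGLU31 averaged 3.22 and 4.96 in the same order, and At5g02580 averaged 3.09 and 5.16. In all, 6 named genes had a correlation of at least 0.9 with PRX52 and 61 of at least 0.8.

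The genes most like At4g36430 were others. At1g26450, annotated as related to beta-1,3-glucanases, had a correlation of 0.91 over arrays and 0.98 over group means. At5g13880 had 0.88 and 0.97, At5g47920 had 0.87 and 1.00, At5g22860, of a serine carboxypeptidase family, had 0.85 and 0.96, and TET5, a tetraspanin, had 0.85 and 0.94. Only At1g26450 reached 0.9, and 10 named genes reached 0.8. At4g36430 thus had fewer genes at these limits than PRX52. Its group means spanned 0.79 beside a pooled replicate SD of 0.19, against 2.88 beside 0.29 for PRX52. Replicate spread can weigh more on correlations over arrays where the span is small. Its part in these counts was not tested, and they are not read as a rarer pattern.

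**Figure D3:**
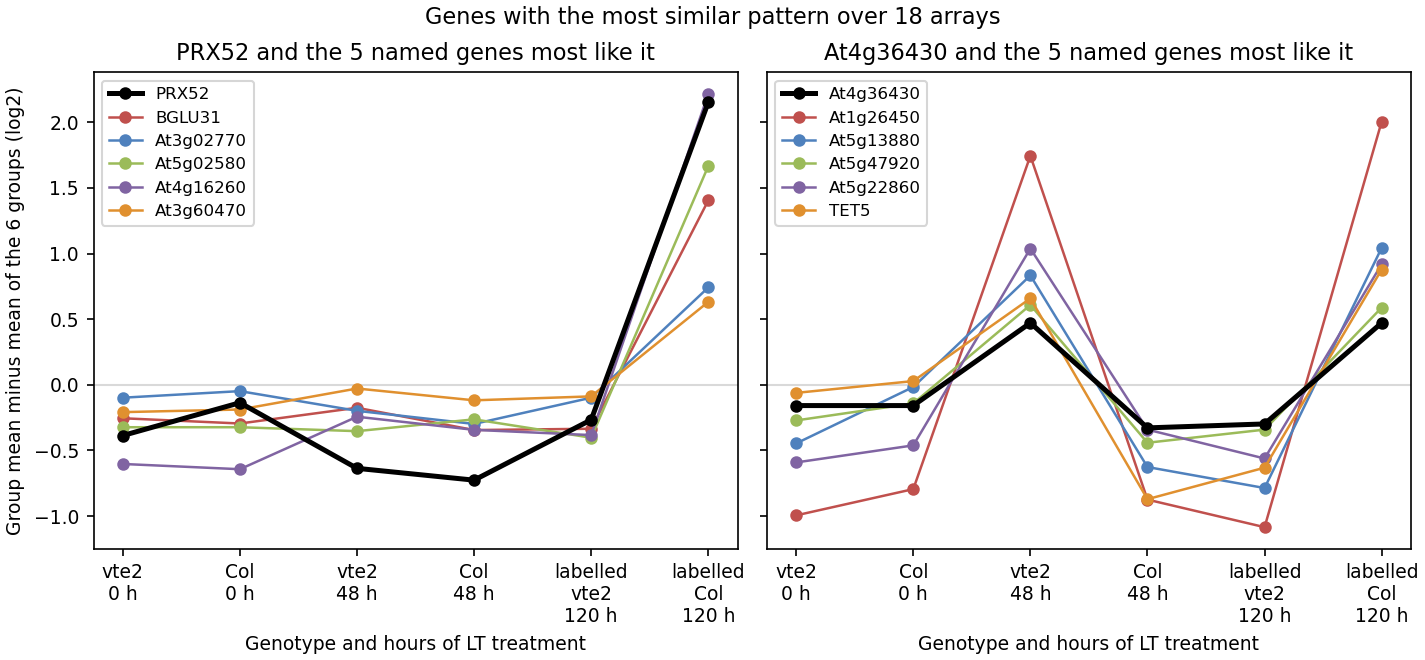
Group means (log2) minus each gene's own mean over groups (vertical axes) in the 6 groups (horizontal axes) for PRX52, left, and At4g36430, right, each with the 5 named genes of highest correlation over 18 arrays. The PRX52 set peaks in arrays labelled Col at 120 h, and the At4g36430 set in vte2 at 48 h and in arrays labelled Col at 120 h. Selection by correlation largely fixes these shared shapes.

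Within the family, 2 other peroxidases came closest to both genes. At5g06730 had a correlation of 0.88 with PRX52 (rank 11 of all named genes) and of 0.71 with At4g36430 (rank 31). At2g41480 had 0.70 with PRX52 (rank 214) and 0.66 with At4g36430 (rank 54). At5g06730 measured 3.31, 3.20 and 3.15 in arrays labelled vte2 at 120 h, against 4.13, 3.92 and 4.14 in arrays labelled Col. It was lower in every array labelled vte2.

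Apart from PRX52 and At4g36430, 53 named peroxidases were set against the genotypes. Most of the family was dim, since 44 of the 55 named averaged under 4.35, where the 40% dimmest probe sets lie. This limits comparisons of the share called in the family with that over the array. At 0 h none was called (3 at an unadjusted p under 0.05), and the median difference was -0.05, beside 0.00 over all probe sets. The largest were -0.84 for At5g64120 (adjusted p = 0.771) and 0.48 for At1g71695 (adjusted p = 0.419). At 48 h none was called in limma (4 at an unadjusted p under 0.05). The arrays of 7 genes did not overlap, 13.2% of the 53 beside the 16.1% of all probe sets. The largest differences were -0.91 for At4g08780 (adjusted p = 0.108) and 0.86 for At2g41480 (adjusted p = 0.305), neither past the threshold.

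At 120 h, 3 of the 53 were called lower in arrays labelled vte2 and 0 higher, 5.66% beside the 3.09% of all probe sets called lower. At2g41480 differed by -1.06 (SE 0.25, adjusted p = 0.0202), with 4.07 ± 0.28 in arrays labelled vte2 and 5.13 ± 0.21 in arrays labelled Col. Prx37 differed by -0.97 (SE 0.23, adjusted p = 0.0179), with 3.53 ± 0.36 and 4.50 ± 0.11 in the same order. At5g06730 differed by -0.84 (SE 0.11, adjusted p = 0.000315). The median over the 53 was 0.03, beside 0.01 over all probe sets, and 26.4% did not overlap, beside 36.6%. None of the 53 reached the size of the PRX52 difference. The count of 3 fell to 1 without replicate 2 of the arrays labelled Col or without replicate 1 or 3 of those labelled vte2.

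**Figure D4:**
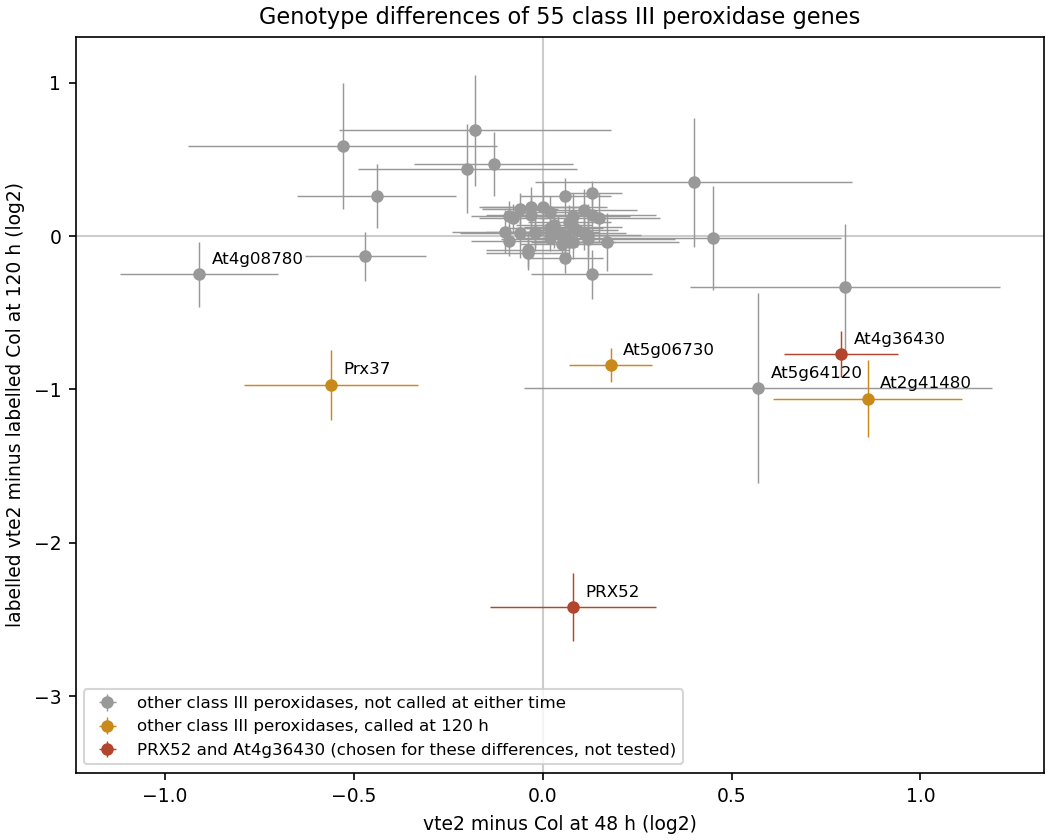
Genotype difference at 48 h (vte2 minus Col, log2, horizontal axis) and at 120 h (labelled vte2 minus labelled Col, log2, vertical axis) of 55 class III peroxidase genes, with bars for the SE of the limma fit. PRX52 lies at 0.08 and -2.42, At4g36430 at 0.79 and -0.77, and the 3 other genes called at 120 h lie between -1.06 and -0.84 on the vertical axis.

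In the LT response over both genotypes, 4 of the 53 rose and 10 fell at 48 h, 7.55% and 18.9% beside 20.8% and 24.6% of all probe sets. The dimness of the family, given above, limits this comparison at both LT times. Prx37 rose by 3.63 (SE 0.16, adjusted p = 1.38e-10) and At5g64120 by 3.08 (SE 0.44, adjusted p = 3.02e-05). At4g08780 rose by 1.01 (SE 0.15, adjusted p = 3.87e-05). It neighbours Prx37 (At4g08770) and is closely related to it, so cross-hybridisation between the pair is uncertain. At1g71695 fell by 2.15 (SE 0.11, adjusted p = 7.63e-10), PRXR1 by 1.15, At2g34060 by 0.91 and At5g40150 by 0.74. The fall of PRX52 was smaller than those of these 4 genes.

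At 120 h, 5 of the 53 rose and 9 fell, 9.43% and 17.0% beside 20.1% and 17.5% of all probe sets. At5g64120 rose by 2.26 (SE 0.44, adjusted p = 0.000739), At2g37130 by 1.91 and At3g21770 by 0.37. At4g33420 fell by 1.81 (SE 0.29, adjusted p = 0.000143), At5g51890 by 1.31 and At1g71695 by 0.73. The average of PRX52 at 120 h, 1.21, rests on the arrays that chose it and is not ranked among these.

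Of 57 genes in lists of related enzymes, 8 were named, so the lists are small samples. They comprised 2 of 19 monolignol genes, which make the phenolic substrates of lignin, 1 of 17 laccases, which also polymerise monolignols, 3 of 10 respiratory burst oxidases, which supply apoplastic reactive oxygen, and 2 of 11 ascorbate peroxidases and catalases, which remove hydrogen peroxide inside the cell. No gene of these lists was called between the genotypes at 0 h or 48 h. For the laccase and the oxidases, low levels limit this, as given below. At 120 h, 2 of the 8 were called lower in arrays labelled vte2 and 0 higher, beside 3.09% and 3.44% of all probe sets.

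CCR2, a cinnamoyl-CoA reductase of monolignol synthesis, ran in the same directions as At4g36430. It differed by 1.82 between vte2 and Col at 48 h (SE 0.42, adjusted p = 0.112, not called) and by -1.70 between arrays labelled vte2 and labelled Col at 120 h (SE 0.42, adjusted p = 0.0241). At 48 h CCR2 measured 7.87, 7.52 and 7.81 in vte2, against 6.27, 4.47 and 7.00 in Col, so the low replicate 2 of Col enlarged that difference. SAPX, a chloroplast ascorbate peroxidase, differed by -0.57 at 120 h (SE 0.13, adjusted p = 0.0179). Neither of these 2 calls held without replicate 2 or 3 of the arrays labelled Col or replicate 1 or 3 of those labelled vte2, and 1 of them was lost without replicate 1 of Col or replicate 2 of vte2. HCT, the other monolignol gene, differed by 0.33 at 48 h (adjusted p = 0.47).

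In LT over both genotypes, the same lists held rises and falls. At 48 h, 2 of the 8 genes were called higher and 3 lower, beside 20.8% and 24.6% of all probe sets. At 120 h, 1 was called higher and 2 lower, beside 20.1% and 17.5%. With so few genes, these counts are not read as a result about the lists. At 48 h CCR2 rose by 2.53 (SE 0.30, adjusted p = 4.19e-06) and SAPX by 2.35, while TAPX, the thylakoid ascorbate peroxidase, fell by 1.54, HCT by 1.17 and the laccase LAC16 by 0.25. The CCR2 arrays of the times overlapped, since replicate 2 of Col at 48 h measured 4.47 and Col at 0 h reached 4.64. At 120 h SAPX rose by 2.32, and TAPX fell by 1.58 and HCT by 1.37 (adjusted p = 5.64e-09). None of the 3 respiratory burst oxidases was called at either time, with -0.14 for At1g19230 at 48 h (adjusted p = 0.164) as the largest there and -0.20 for At4g25090 at 120 h (adjusted p = 0.156). Over all arrays they averaged 3.20 (At1g19230), 3.43 (At4g25090) and 2.96 (At4g11230), and LAC16 averaged 3.38. These levels lie among the 40% dimmest probe sets (mean under 4.35), so a response of these genes may not have been visible. RCA differed by -0.64 at 48 h from 0 h, and its part in the falls was not tested.

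Genes beside the pair on the chromosomes were taken by position, up to 3 on each side. For PRX52, At5g05310, At5g05320 and At5g05350 were named, and none was called between the genotypes at any time or in LT. For At4g36430, none of the 4 named neighbours was called between the genotypes. In LT at 48 h its neighbour At4g36420 rose by 1.03 (adjusted p = 0.000159), At4g36440 fell by 0.97 (adjusted p = 3.54e-06) and D2HGDH fell by 0.85 (adjusted p = 0.000208), and At4g36420 was also higher at 120 h by 0.86 (adjusted p = 0.00108).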

How the data were processed

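Log2 values of 22810 probe sets on 18 ATH1 arrays were used as deposited. Per the study's methods, the authors had summarised perfect match probes by RMA (affy), with background correction and quantile normalization, and deposited the log2 result. Replicates were described as independent, and the number of arrays limits the precision. With limma 3.58.1 in R 4.3.3, 6 group means were fitted to all arrays (12 residual degrees of freedom, 2.659 prior), with two-sided moderated tests and Benjamini-Hochberg adjustment over all probe sets (threshold 0.05). Steps were tested on simulated data.

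PRX52, At4g36430 and the lists were chosen with earlier results of these data known. The probe table gave 13513 probe sets a single gene and 503 several, and did not list 8794. Of the single-gene probe sets, 13436 had a locus, for 13286 genes. Names of neighbours came from the TAIR10.1 RefSeq annotation. Besides PRX52 and At4g36430, named genes were up to 4 largest called rises and falls per comparison of the family with arrays that did not overlap, up to 3 per other list, or the 2 largest differences where none passed, the 5 nearest by correlation, and neighbours. Deviations of same-numbered vte2 and Col arrays from their group means correlated in every pair at 0 h (0.397 to 0.791). At 48 h some did (0.054 to 0.302), and at 120 h none did (-0.151 to 0.0096). Deviations within a group are not independent, and replicate 3 stood apart in both genotypes at 0 h. That alone can raise the values of replicates 1 and 2, so whether the numbers pair arrays is not settled. Alternatives covered the arrays fitted, a replicate block, normalization, dim probe sets, array weights, the prior and omitted arrays. Seedling and public stress data were not analysed here.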

Additional observations from a re-analysis of the deposited data

Results flagged for a closer look

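For At4g36430, every array went one way at 48 h and the other at 120 h. The genotype difference at 120 h, as labelled, minus that at 48 h was -1.56, and the LT response at 48 h in vte2 minus that in Col was 0.79. Neither difference was tested, because the gene was chosen for the genotype differences that enter them.

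Among the other 53 peroxidases, the genotype difference at 120 h minus that at 48 h passed limma's interaction test for 2 genes. The share of all probe sets passing interaction tests is not given here. The count is therefore not read as a result about the family, nor the CCR2 value below as one about its list. At2g41480 had a genotype difference at 120 h minus that at 48 h of -1.92 (SE 0.36, adjusted p = 0.00477). For At5g06730 that value was -1.02 (SE 0.15, adjusted p = 0.000928), and its change between 0 h and 120 h was lower in arrays labelled vte2 than in arrays labelled Col by a difference of -0.90 (adjusted p = 0.00595). CCR2, of monolignol synthesis, had a genotype difference at 120 h minus that at 48 h of -3.52 (SE 0.59, adjusted p = 0.00229). The low replicate 2 of Col at 48 h enters the CCR2 value. These values take the labels at 120 h as deposited, and the calls on 120 h against 48 h did not hold with the labels exchanged. The genotype difference at 120 h minus that at 48 h would then be 0.20 for At2g41480 (adjusted p = 1), 0.66 for At5g06730 (adjusted p = 0.125) and -0.13 for CCR2 (adjusted p = 1), and -0.03 for At4g36430, untested. The change of At5g06730 between 0 h and 120 h would be higher in vte2 by 0.79 (adjusted p = 0.014).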

How the results depend on the processing

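The untested averages of PRX52 at 120 h were 1.08 to 1.33 against 0 h and 1.57 to 1.67 against 48 h with single arrays left out, and 0.97 against 0 h without both replicate 3 arrays at 0 h, a stability that the choice of the gene largely fixes. Its lower value at 48 h missed the threshold with only the arrays compared (-0.42, adjusted p = 0.095) and with cyclic loess (-0.35, adjusted p = 0.099), and ranged from -0.54 to -0.30 with single arrays left out. For At4g36430, the genotype difference at 0 h changed sign around 0 (0.00 with cyclic loess, 0.05 with median centring, 0.01 with array weights, -0.11 to 0.09 with single arrays left out), as did 120 h against 48 h (-0.02 with cyclic loess, -0.05 to 0.10). Its 48 h average over both genotypes was 0.30 with cyclic loess, and its 120 h average ranged from 0.18 to 0.32 with single arrays left out. With the genotype labels exchanged at 120 h, an alternative chosen after seeing the data, the genotype differences were 2.42 for PRX52 and 0.77 for At4g36430. The cause of these changes was not tested. Without the 40% dimmest probe sets (mean under 4.35), neither gene had a value, since both averaged below that level, as did 44 of the 55 named peroxidases. Neither has another probe set.

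Counts of other peroxidases and list genes called between genotypes were small and moved, as did those over the array: at 120 h, 11.3% of all probe sets were called higher and 12.6% lower with only the arrays compared, 13.1% and 13.3% with array weights, 7.20% and 6.74% without both replicate 3 arrays at 0 h, and 5.83% and 5.59% with the replicate block. At 48 h the array weights gave 1.92% higher and 2.30% lower. At 120 h, peroxidases called higher in arrays labelled vte2 numbered 5 with only the arrays compared or with array weights, 2 without both replicate 3 arrays at 0 h, 1 with a trended and robust prior, 3 with exchanged labels and 0 to 1 with single arrays left out. Those called lower numbered 5 with only the arrays compared, 0 with exchanged labels and 1 to 3 with single arrays left out. At 48 h, those called higher numbered 2 with array weights, 1 with only the arrays compared and 0 to 1 with single arrays left out, and those called lower 1 with array weights or without both replicate 3 arrays at 0 h and 0 to 1 with single arrays left out. At 0 h, 1 was called higher without both replicate 3 arrays. In LT, peroxidases called lower at 120 h numbered 4 with only the arrays compared and 5 to 9 with single arrays left out. Without the dimmest probe sets, 11 peroxidases were left. Of these, 2 were called higher and 6 lower at 48 h, beside 31.6% and 32.1% of the probe sets kept. At 120 h, 3 were called higher and 5 lower, beside 31.8% and 24.4%. The lower share of falls at 48 h among all 53 thus did not hold for the brighter genes. List genes called higher at 48 h between genotypes numbered 2 with array weights, 1 without both replicate 3 arrays at 0 h and 0 to 1 with single arrays left out. At 120 h those called higher numbered 1 with array weights, with only the arrays compared or without both replicate 3 arrays at 0 h, 2 with exchanged labels and 0 to 1 with single arrays left out, and those called lower 0 with exchanged labels and 0 to 2 with single arrays left out. In LT at 120 h, 2 were called higher with only the arrays compared and 1 to 2 with single arrays left out.

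With the replicate block, no tested call of PRX52 or At4g36430 changed (PRX52 at 48 h, adjusted p = 0.0275), 1 peroxidase was called higher at 120 h and 1 lower at 48 h, and 1 list gene higher at 48 h. Over all probe sets, calls at 48 h between genotypes numbered 78 higher and 80 lower with the block, beside 49 and 28 without it.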
